A study of Mus musculus with 6 samples.

Results

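The genes described here are 10 transcripts used to recognise mast cells, basophils and eosinophils in mouse tissue: Cpa3, Cma1, Mcpt4, Tpsb2, Ms4a2, Fcer1a, Kit, Gata2, Epx and Prg2. They were chosen by gene name from a table of 54532 genes. The rule itself used no measured value, but earlier results of these data were known when the genes were picked. RNA sequencing was carried out on perfused whole lungs from 3 wild type (WT) C57BL/6J mice and 3 ISM1-/- mice of 2 months of age, all untreated. ISM1-/- mice, which carry a disrupted gene for isthmin 1, a secreted protein of the lung, were bred in-house on the C57BL/6J background, whereas WT mice came from a vendor. Genotype and origin of the animals cannot be told apart. Each library came from the whole organ, so fewer cells of a type and less RNA per cell cannot be told apart either. Whether each mouse came from a separate litter was not given.

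Mast cells are long-lived tissue cells that store histamine, serglycin proteoglycan and proteases in granules. In mouse tissue the granule proteases include the chymases Cma1 and Mcpt4, the tryptase Tpsb2 and the carboxypeptidase Cpa3. Release of the granules is triggered when antigen cross-links IgE held by the high-affinity IgE receptor, which is built from an alpha chain (Fcer1a), a beta chain (Ms4a2) and gamma chains (Fcer1g). Survival of mast cells depends on the receptor tyrosine kinase Kit, and the transcription factor Gata2 is needed by mast cells and basophils. Eosinophils carry their own granule proteins, among them eosinophil peroxidase (Epx) and major basic protein (Prg2). In the resting mouse lung mast cells are sparse and sit mainly around large airways and vessels.

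The 6 libraries held between 37606133 and 42345042 gene counts, with a median of 39101437. Ism1, the targeted gene, was still transcribed in the ISM1-/- lungs, at 2784, 2508 and 2953 counts against 3098, 3215 and 2975 in WT lungs (log2 fold change -0.19, SE 0.0709, edgeR adjusted p = 0.217), so its level does not check the genotype labels. Levels are given in CPM, which are read counts scaled by the library total and its TMM factor. Endothelial and alveolar macrophage markers, which mark lung tissue, were measured well enough to be tested for 8 of 8 genes in each list. Of the 10 genes, 6 passed the filter of 0.5 CPM in at least 1 library and were tested in edgeR among 18689 genes. Each of the 6 passed it in both groups. Ms4a2, Fcer1a, Epx and Prg2 stayed below the filter.

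Of the 6 genes tested, 1 was lower in ISM1-/- lungs and none was higher at a Benjamini-Hochberg adjusted p under 0.1 in edgeR's quasi-likelihood test. The gene was Mcpt4, which also passed the 2-fold minimum. At an unadjusted p under 0.05 edgeR gave 3 genes lower and 1 higher, against 2949 of all 18689 genes tested in either direction. The unadjusted counts of the lists below have the same background. DESeq2 at an adjusted p under 0.1 gave 1 lower and 0 higher. The shares over all genes that follow are from edgeR and are no background for DESeq2 counts, here or in the lists. Among all genes tested, 4.72% passed edgeR's adjusted p under 0.1 in either direction, 1.38% as higher and 3.34% as lower. With the 2-fold minimum added, 0.567% of all genes passed, and 0.284% as lower. Counts of the WT and ISM1-/- libraries, scaled to CPM, did not overlap for 4 of the 6 genes, against 21.6% of all genes tested. The median log2 fold change was -0.39 over the 6 genes and 0.0043 over all genes tested.

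**Figure D1:**
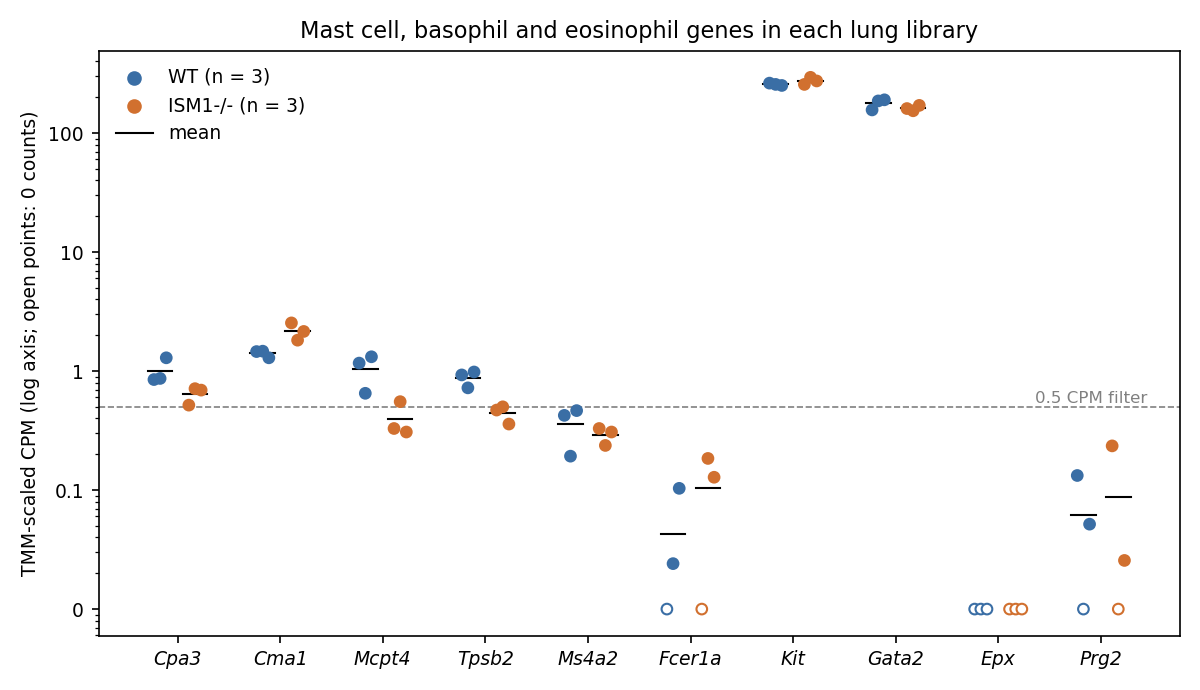
TMM-scaled CPM (log axis) of the 10 genes in each of the 3 WT and 3 ISM1-/- lung libraries, with the group mean as a bar and libraries at 0 counts as open points. CPM are not corrected for gene length. Kit and Gata2 overlap between the groups, the 4 protease genes do not, and the remaining 4 genes lie below the dashed filter line at 0.5 CPM.

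The proteases were read from few fragments. Mcpt4 (ENSMUSG00000061068, GRCm38 chromosome 14, 56059629 to 56062313, minus strand), a chymotrypsin-like chymase of connective tissue mast cells, had 44, 27 and 51 counts in WT replicates 1 to 3 and 14, 21 and 12 counts in ISM1-/- replicates 1 to 3. All 3 ISM1-/- libraries were below all 3 WT libraries, and WT replicate 2 lay close to the highest ISM1-/- library. The mean was 1.05 ± 0.350 CPM (SD, n = 3) in WT and 0.397 ± 0.136 CPM in ISM1-/- lungs. The fitted log2 fold change was -1.39 (SE 0.369, edgeR adjusted p = 0.0885). The call did not survive the loss of any single library: the edgeR adjusted p was 0.189, 0.110 and 0.247 without WT replicates 1, 2 and 3, and 0.264, 0.132 and 0.145 without ISM1-/- replicates 1, 2 and 3. The fitted change stayed between -1.70 and -1.19 in those fits.

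Cma1 (ENSMUSG00000022225, chromosome 14, 55941451 to 55944675, minus strand), the chymase also known as mast cell protease 5, had the opposite sign. It gave 55, 61 and 50 counts from WT lungs, compared with 108, 69 and 84 from ISM1-/- lungs. Every ISM1-/- library was above every WT library, but the difference did not pass the test. The mean was 1.41 ± 0.0991 CPM in WT and 2.17 ± 0.361 CPM in ISM1-/- lungs (SD, n = 3). The log2 fold change was 0.63 (SE 0.198, 95% interval 0.18 to 1.07, edgeR adjusted p = 0.148).

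Tpsb2 (ENSMUSG00000033825, chromosome 17, 25366550 to 25368094, plus strand) encodes a tryptase stored on serglycin in the granules. It gave 35, 30 and 38 counts from WT lungs, compared with 20, 19 and 14 from ISM1-/- lungs. The groups did not overlap, with a mean of 0.878 ± 0.137 CPM in WT and 0.443 ± 0.0747 CPM in ISM1-/- lungs (SD, n = 3). The log2 fold change was -0.98 (SE 0.290, edgeR adjusted p = 0.124). The adjusted p fell below 0.1 only when the filter was changed, to 0.0896 without a filter and to 0.0947 with 0.5 CPM asked of at least 3 libraries.

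Cpa3 (ENSMUSG00000001865, chromosome 3, 20215620 to 20242181, minus strand), the carboxypeptidase that mast cells make in all tissues and basophils make too, reached 32, 36 and 50 counts in the 3 WT mice, against 22, 27 and 27 in the 3 ISM1-/- mice. Again the groups did not overlap. The mean was 1.003 ± 0.251 CPM in WT and 0.640 ± 0.107 CPM in ISM1-/- lungs (SD, n = 3), and the log2 fold change was -0.65 (SE 0.285, edgeR adjusted p = 0.306).

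Since 1 protease had a positive and 3 had a negative sign, the makeup of the protease transcripts was set out within each library. This comparison was chosen after the counts were seen. The 4 genes together held 166, 154 and 189 counts in the WT libraries, against 164, 136 and 137 in ISM1-/- ones, or 4.40, 3.71 and 4.89 CPM against 3.86, 3.58 and 3.51 CPM. The sum was lower in ISM1-/- libraries except that ISM1-/- replicate 1 lay above WT replicate 2.

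Cma1 took 33.1% (95% Wilson interval 26.4 to 40.6), 39.6% (32.2 to 47.5) and 26.5% (20.7 to 33.2) of these counts in WT replicates 1 to 3. In ISM1-/- replicates 1 to 3 it took 65.9% (58.3 to 72.7), 50.7% (42.4 to 59.0) and 61.3% (53.0 to 69.1). The intervals cover counting error only, and the shares are of counts without correction for gene length, set beside each other between libraries. WT replicate 2 and ISM1-/- replicate 2 were the closest pair, and their intervals overlapped. Since Cma1 was higher and the other genes were lower without overlap, the Cma1 share had to separate the groups, so it describes size only. Mcpt4 took between 17.5% and 27.0% in WT and between 8.54% and 15.4% in ISM1-/- libraries.

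**Figure D2:**
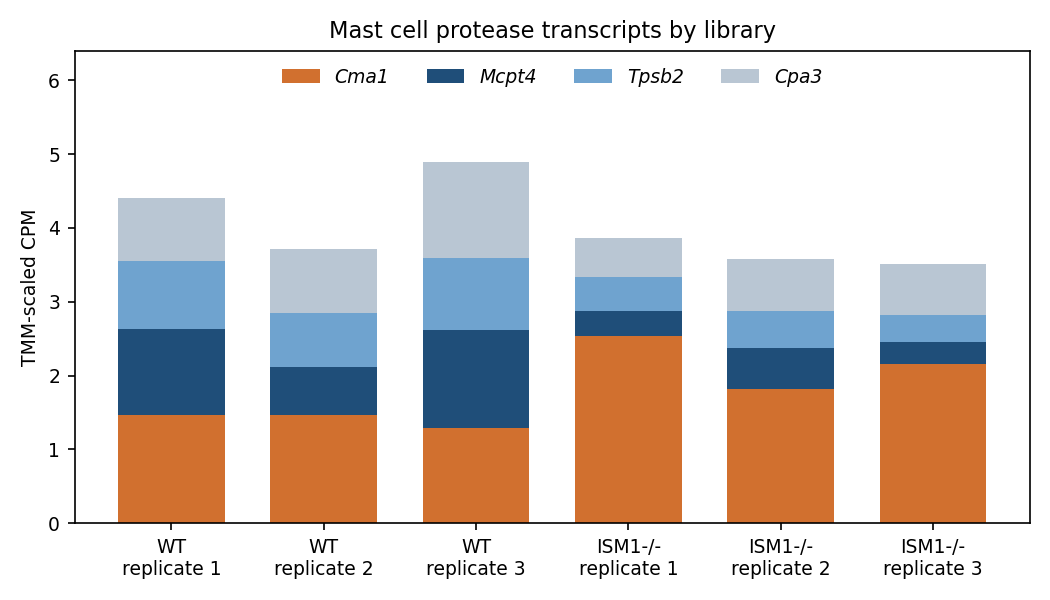
Stacked TMM-scaled CPM of Cma1, Mcpt4, Tpsb2 and Cpa3 in each of the 6 lung libraries, on an axis that starts at 0. Cma1 forms 26.5% to 39.6% of the summed counts in WT and 50.7% to 65.9% in ISM1-/- libraries, while the height of the bars runs from 3.51 to 4.89 CPM.

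A ratio of 2 genes within a library does not depend on how libraries are scaled. The Cma1 to Mcpt4 count ratio was 1.25, 2.26 and 0.980 in WT and 7.71, 3.29 and 7.0 in ISM1-/- libraries, a difference of 2.00 in mean log2 ratio. The Cma1 to Tpsb2 ratio differed by 1.60 and the Cma1 to Cpa3 ratio by 1.25 on the log2 scale. The ratios were built from signs already seen. Since Cma1 was higher and the other 3 genes were lower without overlap, the groups had to separate in each ratio, so the ratios are a description of size and no test is given. With any 1 library left out, the difference stayed between 1.74 and 2.39 for Mcpt4, between 1.45 and 1.82 for Tpsb2 and between 0.981 and 1.45 for Cpa3.

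Cma1 and Mcpt4 lie in a cluster of related serine protease genes on chromosome 14. Between 55941451 and 56262260 the annotation places 15 protein-coding genes on GRCm38, and 3 of them passed the filter: Cma1, Mcpt4 and Gzmb. Of the other 12, 5 had 0 counts in all libraries and none exceeded 4 counts in a library. Gzmb, the granzyme of cytotoxic lymphocytes at the far end of the cluster, gave 257, 158 and 116 counts from WT lungs, compared with 356, 247 and 267 from ISM1-/- lungs (log2 fold change 0.68, SE 0.258, edgeR adjusted p = 0.227). The mucosal mast cell proteases Mcpt1 and Mcpt2 had 3 and 1 counts over all 6 libraries. Of the 50-base words in the annotated transcripts, 5.38% for Cma1 were shared with Gm48934, and 5.48% for Mcpt4 with Cma2 or Mcpt9. Gm48934 and Cma2 had 0 counts and Mcpt9 had 1 count in all libraries together, and Tpsb2 and Cpa3 shared 0% of their words with another gene.

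The sequences just upstream of Cpa3, Mcpt4 and Cma1 are shown because the first and second had a negative and the last a positive sign. They are the 250 bases before the RefSeq start on GRCm38.p6, read 5′ to 3′ on the strand of the gene. Capitals mark the GATA motif letters AGATAA or TGATAA, which were searched on both strands.
Cpa3, chr3:20242182-20242431, minus strand: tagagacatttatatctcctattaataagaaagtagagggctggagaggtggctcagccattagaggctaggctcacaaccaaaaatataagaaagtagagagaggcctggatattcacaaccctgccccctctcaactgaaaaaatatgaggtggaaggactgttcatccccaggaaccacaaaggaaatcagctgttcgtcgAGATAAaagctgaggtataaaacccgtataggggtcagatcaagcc
Mcpt4, chr14:56062311-56062560, minus strand: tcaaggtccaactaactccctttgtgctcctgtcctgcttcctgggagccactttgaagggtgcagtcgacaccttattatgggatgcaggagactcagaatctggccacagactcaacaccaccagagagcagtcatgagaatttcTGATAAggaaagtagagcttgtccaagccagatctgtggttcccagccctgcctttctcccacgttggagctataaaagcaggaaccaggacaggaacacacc
Cma1, chr14:55944676-55944925, minus strand: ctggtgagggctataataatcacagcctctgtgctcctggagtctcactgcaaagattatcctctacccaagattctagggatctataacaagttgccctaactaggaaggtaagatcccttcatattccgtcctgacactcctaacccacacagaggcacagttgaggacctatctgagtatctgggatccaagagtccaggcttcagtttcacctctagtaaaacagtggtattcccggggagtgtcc
AGATAA stood at -46 in the Cpa3 window and TGATAA at -103 in the Mcpt4 window, while neither was found in the Cma1 window. Other forms of the GATA motif, such as AGATAG, were not searched. The Cma1 window holds ctatct, which is AGATAG on the opposite strand, so the search does not show that Cma1 lacks a GATA motif. Of the 10 genes, 8 had an entry in the RefSeq promoter table, and 4 held either motif: Cpa3, Mcpt4, Ms4a2 with 3 matches, and Fcer1a. Kit, Gata2 and Epx held none in this window, and Tpsb2 and Prg2 had no entry. Over 32851 promoter windows of the same length, 9.99% held AGATAA, 7.94% held TGATAA and 16.6% held either.

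The IgE receptor chains that are restricted to mast cells and basophils were close to the limit of detection. Ms4a2, the beta chain (ENSMUSG00000024680), reached 16, 8 and 18 counts in the 3 WT mice, against 14, 9 and 12 in the 3 ISM1-/- mice, and the groups overlapped. Fcer1a, the IgE-binding alpha chain (ENSMUSG00000005339), gave 0, 1 and 4 counts from WT lungs, compared with 0, 7 and 5 from ISM1-/- lungs. Of the 50-base words of Ms4a2, 2.1% were shared with Ms4a4b, which had 442 to 1115 counts per library. No fold is given for Fcer1a, since libraries of both groups lay at or under 3 counts. Without the filter the edgeR adjusted p was 0.829 for Ms4a2 and 0.752 for Fcer1a. Fcer1g, the gamma chain that many myeloid cells also make, had 31.1 ± 2.11 CPM in WT and 30.6 ± 4.61 CPM in ISM1-/- lungs (SD, n = 3).

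Downstream of the receptor, 14 of 14 signalling genes were tested, and 2 were higher and 0 lower in edgeR at an adjusted p under 0.1. At an unadjusted p under 0.05, 5 were higher and 0 lower, and DESeq2 called 3 higher and 0 lower. The sign was positive for 13 of the 14, and the median log2 fold change was 0.21. These genes work in many blood cells besides mast cells. Of the neutrophil markers, 3 were higher in the same comparison, with log2 fold changes of 1.49 for S100a8, 1.46 for S100a9 and 1.21 for Cxcr2 (SE 0.224, 0.222 and 0.263). Syk, Plcg2 and Pik3cd had their highest level in ISM1-/- replicate 1 and their lowest ISM1-/- level in replicate 3. For Syk the levels were 93.3, 75.9 and 61.7 CPM in ISM1-/- replicates 1 to 3. Not every gene of the list had this order. Inpp5d had 87.3, 79.5 and 88.4 CPM in ISM1-/- replicates 1 to 3, and Gab2 and Plcg1 had their lowest ISM1-/- level in replicate 1. The part of neutrophil transcripts in the signalling genes was not tested.

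The called genes were Inpp5d and Lyn. Inpp5d, the inositol phosphatase SHIP-1 that restrains IgE receptor signalling, reached 2674, 2812 and 2566 counts in the 3 WT mice, against 3714, 3018 and 3450 in the 3 ISM1-/- mice. Its log2 fold change was 0.32 (SE 0.0634, edgeR adjusted p = 0.0366). The adjusted p rose to 0.145 without WT replicate 2, to 0.134 without WT replicate 3 and to 0.139 without ISM1-/- replicate 1. Lyn, the Src family kinase that phosphorylates the receptor chains, gave 4274, 4445 and 4414 counts from WT lungs, compared with 5612, 4926 and 4834 from ISM1-/- lungs, with a log2 fold change of 0.21 (SE 0.0563, edgeR adjusted p = 0.0996). For Lyn the adjusted p rose to between 0.150 and 0.357 without WT replicate 1, 2 or 3 or ISM1-/- replicate 1 or 2, and it was 0.0396 without ISM1-/- replicate 3.

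Kit (ENSMUSG00000005672, chromosome 5, 75574916 to 75656722, plus strand) is also made by lung capillary endothelium, and Gata2 by endothelial cells in general. Kit reached 9912, 10644 and 9719 counts in the 3 WT mice, against 10902, 11157 and 10699 in the 3 ISM1-/- mice. Scaled to CPM the groups overlapped, at 257 ± 5.80 CPM in WT and 275 ± 18.8 CPM in ISM1-/- lungs (SD, n = 3). The log2 fold change was 0.10 (SE 0.0630, 95% interval -0.04 to 0.24, edgeR adjusted p = 0.510).

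Gata2 (ENSMUSG00000015053, chromosome 6, 88193891 to 88207032, plus strand) gave 5902, 7731 and 7360 counts from WT lungs, compared with 6835, 5843 and 6668 from ISM1-/- lungs. Again the groups overlapped, at 178 ± 18.4 and 162 ± 8.51 CPM (SD, n = 3). The log2 fold change was -0.13 (SE 0.0803, 95% interval -0.31 to 0.04, edgeR adjusted p = 0.466). The 8 endothelial markers summed to 3855 to 4119 CPM in WT and 3993 to 4246 CPM in ISM1-/- lungs. Of these endothelial markers 1 was higher, Sox17, a transcription factor of arterial endothelium (log2 fold change 0.51, SE 0.0754, edgeR adjusted p = 0.0153). At an unadjusted p under 0.05 edgeR gave 3 endothelial markers higher and 1 lower, and DESeq2 called 1 higher and 0 lower. The part of mast cell and endothelial transcripts in the Kit and Gata2 values was not tested.

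The eosinophil granule genes were at or near 0. Epx (ENSMUSG00000052234) had 0 counts in all 6 libraries, which allows up to 0.0706 to 0.0796 CPM per library at 3 counts. Prg2 (ENSMUSG00000027073) reached 5, 0 and 2 counts in the 3 WT mice, against 10, 0 and 1 in the 3 ISM1-/- mice, so no fold is given. Without the filter its edgeR adjusted p was 0.884.

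To rank different genes by level, the deposited FPKM were used, which are per length. Over the 6 libraries the mean FPKM fell in the order Kit 112, Gata2 87.5, Cma1 1.65, Cpa3 0.890, Mcpt4 0.651, Tpsb2 0.611, Ms4a2 0.288, Prg2 0.0887, Fcer1a 0.0802 and Epx 0. Ranges over libraries did not overlap between Kit and Gata2 or between Gata2 and Cma1. From Cma1 downward each gene overlapped its next lower neighbour. The deposited FPKM rest on the mean length of a gene's annotated transcripts, and 5 of the 10 genes kept their place when counts were divided by the deposited gene length instead. Kit and Gata2 then changed places, with Gata2 at 31.4 and Kit at 29.8 CPM per kilobase.

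**Figure D3:**
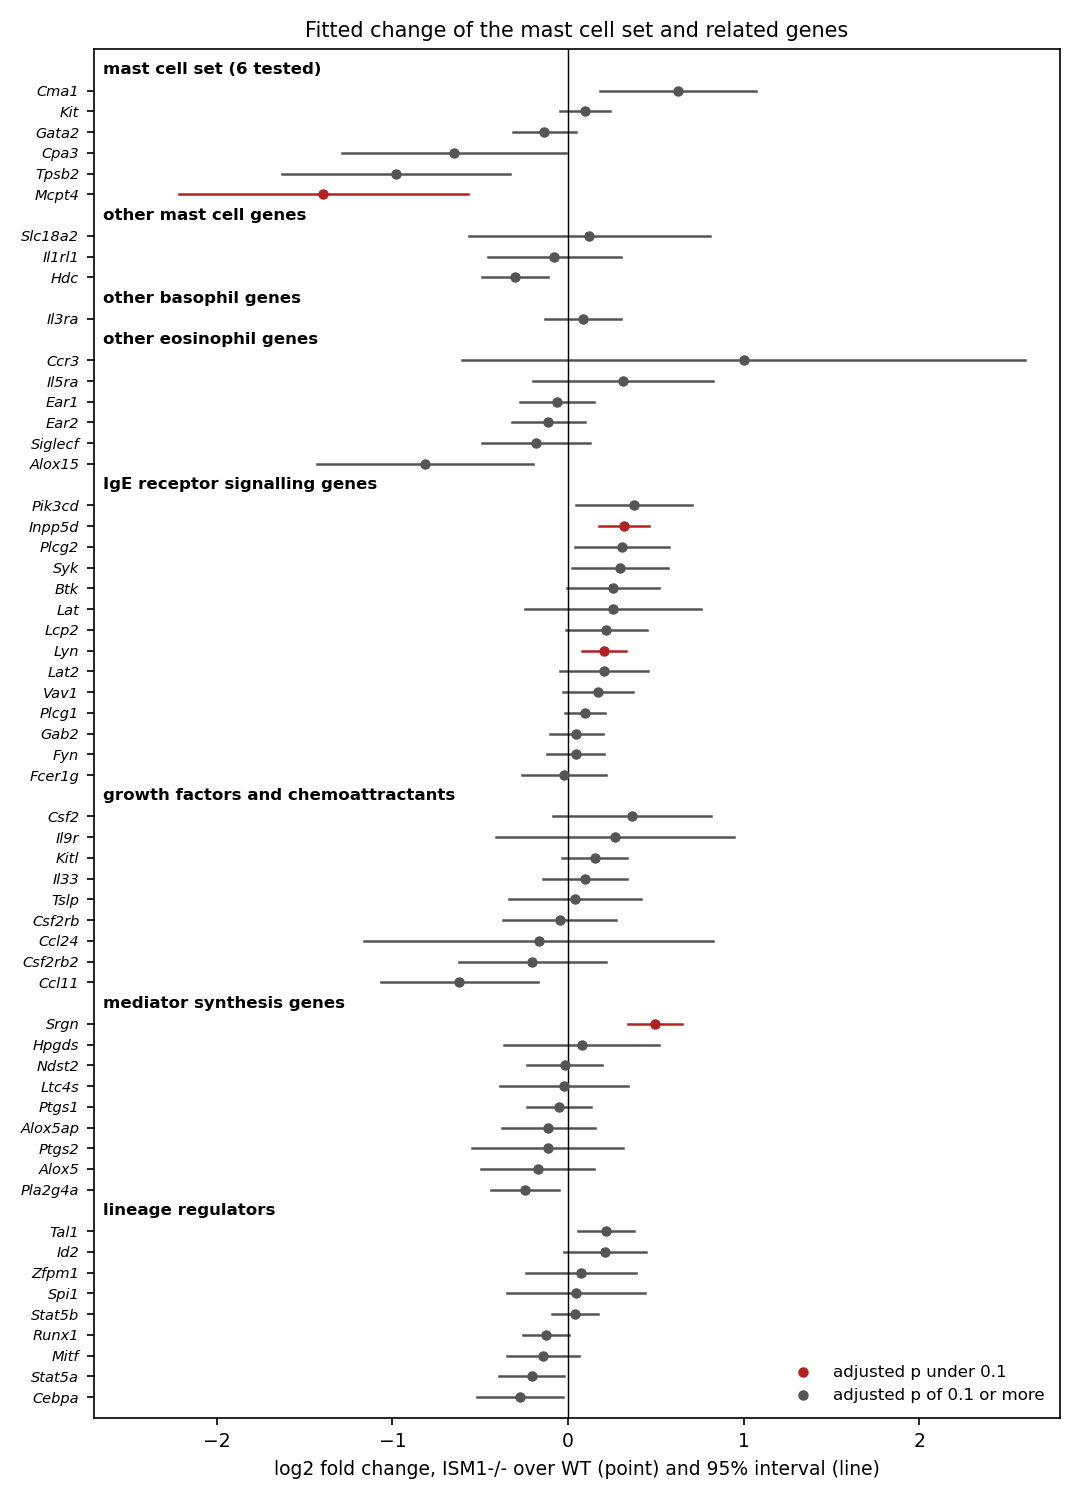
Fitted log2 fold change of ISM1-/- over WT lungs (points) with its 95% interval (lines) for each gene that passed the filter, in the mast cell set and the lists of related genes, and red where the edgeR adjusted p was under 0.1. Mcpt4 lies at -1.39 and Cma1 at 0.63, and the called genes of other lists, Inpp5d, Lyn and Srgn, lie between 0.21 and 0.50.

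Other mast cell genes were mostly below the filter. Of 14 listed, 3 were tested, and edgeR called 0 at an adjusted p under 0.1, 1 lower at an unadjusted p under 0.05, and DESeq2 1 lower. The gene was Hdc, histidine decarboxylase, which makes histamine. It gave 3145, 4259 and 3538 counts from WT lungs, compared with 3335, 2611 and 3038 from ISM1-/- lungs. Its log2 fold change was -0.30 (SE 0.0852, edgeR adjusted p = 0.107). At a mean FPKM of 49.9 over the 6 libraries, Hdc stood far above Cma1 (1.65) and Cpa3 (0.890). The gap to Cma1 was smaller by the deposited gene length, with Hdc at 13.1, Cma1 at 1.64 and Cpa3 at 0.541 CPM per kilobase. The part of mast cell transcripts in the Hdc value was not tested. In CPM the groups did not overlap for Hdc, at 92.5 ± 9.64 and 75.0 ± 5.40 CPM (SD, n = 3), and the adjusted p was under 0.1 without WT replicate 1 (0.0664) and without ISM1-/- replicate 3 (0.0976).

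The vesicular amine transporter Slc18a2 had a log2 fold change of 0.12 (SE 0.307) and the IL-33 receptor Il1rl1 one of -0.08 (SE 0.169), and both changed sign in some fits with 1 library left out. The mast cell tryptase Tpsab1 had 4 counts over the 6 libraries, and the receptor Mrgprb2, a mark of connective tissue mast cells, had 4 in WT and 3 in ISM1-/- libraries. Cma2 had 0 counts throughout.

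Basophil genes gave the same picture of low counts. Of 6 listed, 1 was tested and edgeR called 0, with 0 at an unadjusted p under 0.05 and 0 by DESeq2: Il3ra, the receptor chain for interleukin 3, had a log2 fold change of 0.08 (SE 0.0975). Mcpt8, a protease of basophils, had 2, 4 and 1 counts in WT and 0 in each ISM1-/- library, too few for a test. Cd200r3 reached 11, 6 and 13 counts in the 3 WT mice, against 10, 6 and 2 in the 3 ISM1-/- mice, and Cyp11a1 had 12, 5 and 11 against 19, 5 and 16.

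Of 8 other eosinophil genes 6 were tested, and edgeR called 0, with 1 lower at an unadjusted p under 0.05 and 1 lower by DESeq2. Ear2, Ear1 and Siglecf, which alveolar macrophages share with eosinophils, had log2 fold changes of -0.11 (SE 0.0927), -0.06 (SE 0.0948) and -0.18 (SE 0.137). Alox15, a lipoxygenase that eosinophils share with resident macrophages, gave 112, 113 and 151 counts from WT lungs, compared with 111, 62 and 46 from ISM1-/- lungs (log2 fold change -0.82, SE 0.276, edgeR adjusted p = 0.175). The eosinophil granule gene Prg3 had 2 counts in WT and 1 in ISM1-/- libraries.

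Of 9 genes for granule matrix and lipid mediators, all of them tested, edgeR called 1 higher and 0 lower, and DESeq2 gave the same numbers. Srgn, the serglycin core protein that holds proteases in granules and that endothelial cells and leukocytes make as well, reached 3152, 3268 and 3125 counts in the 3 WT mice, against 4895, 3981 and 4801 in the 3 ISM1-/- mice. Its log2 fold change was 0.50 (SE 0.0684, edgeR adjusted p = 0.0116), the opposite sign to Mcpt4, Tpsb2 and Cpa3, and it passed with each library left out.

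Of 13 growth factor and chemoattractant genes 9 were tested and edgeR called 0. At an unadjusted p under 0.05 edgeR gave 1 lower, and DESeq2 called 0. The lower gene was Ccl11, the eosinophil chemoattractant eotaxin-1. It had 94, 87 and 99 counts in WT and 60, 51 and 74 in ISM1-/- libraries (log2 fold change -0.62, SE 0.201, edgeR adjusted p = 0.159). Kitl, the ligand of Kit, gave 11001, 11265 and 11026 counts from WT lungs, compared with 12174, 11324 and 13960 from ISM1-/- lungs (log2 fold change 0.15, SE 0.0833, edgeR adjusted p = 0.427). Il3 and Il9, cytokines that act on mast cells, had 0 counts in every library. Of 11 lineage regulators 9 were tested and edgeR called 0, with 1 higher and 2 lower at an unadjusted p under 0.05 and 0 by DESeq2.

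Some markers of other cells and tissues also differed between the groups. Fat markers were lower in ISM1-/- lungs for 5 of 7 genes (Plin1, Cidec, Lep, Pck1 and Cfd), with a summed level of 196 to 244 CPM in WT and 84.5 to 140 CPM in ISM1-/- libraries. Plin1, Cidec and Cfd passed with each library left out. The edgeR adjusted p of Lep (0.0484) rose to 0.111 to 0.157 without WT replicate 2 or 3 or ISM1-/- replicate 1 or 2, and that of Pck1 (0.0489) to 0.107 to 0.172 without WT replicate 1 or 3 or ISM1-/- replicate 1 or 2. Atrial muscle markers, from cardiac muscle around the pulmonary veins or the heart, were lower for 1 of 8 genes, Myl7, and had a negative sign for 8 of 8. Their sum was 507 to 1566 CPM in WT, with WT replicate 1 highest, and 275 to 539 CPM in ISM1-/- libraries. With that library left out, the log2 fold change of Myl7 went from -1.11 to -0.66. The edgeR adjusted p of Myl7 was 0.0970, and it rose to 0.106 to 0.280 without any library other than ISM1-/- replicate 3 and to 0.105 with a replicate block, while DESeq2 called 0 atrial markers. Of cartilage and airway wall markers, 1 of 5 tested was lower, Chad (log2 fold change -0.62, SE 0.0743, edgeR adjusted p = 0.00939). At an unadjusted p under 0.05 edgeR gave 6 of 7 fat markers and 8 of 8 atrial muscle markers lower. The same rule gave 3 of 5 tested cartilage and airway wall markers lower, and 0 were higher in any of these lists.

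Of 6 neutrophil markers tested, 3 were higher (S100a8, S100a9 and Cxcr2) and 0 lower in edgeR, and DESeq2 called 4 higher and 1 lower. Ltf, the granule protein lactoferrin, had the opposite sign without overlap (2139, 2087 and 2099 counts against 1499, 1717 and 1912, log2 fold change -0.32, SE 0.111, edgeR adjusted p = 0.187). The adjusted p of Cxcr2 (0.0471) rose to 0.108 to 0.167 without WT replicate 1 or 2 or ISM1-/- replicate 1 or 2. The list had a sum of 76.9 to 84.7 CPM in WT and 96.6 to 123 CPM in ISM1-/- libraries, while the defining marker Ly6g had at most 8 counts in a library. Within this sum Ltf alone had a mean of 53.8 CPM in WT and 43.2 CPM in ISM1-/- lungs. Which cells the Ltf transcripts came from was not tested. Of 6 mesothelial markers 1 was higher, Upk1b, and of 6 tested markers of group 2 innate lymphoid cells 1 was higher, Klrg1. The adjusted p of Upk1b (0.0817) rose to 0.120 to 0.266 without any library other than ISM1-/- replicate 2, and that of Klrg1 (0.0898) to 0.209 to 0.276 without WT replicate 2 or 3 or ISM1-/- replicate 1 or 2. No alveolar macrophage or red cell marker passed in edgeR or DESeq2. At an unadjusted p under 0.05 edgeR gave 1 macrophage marker lower and 0 red cell markers. The sign was negative for 8 of 8 macrophage markers (median log2 fold change -0.16) and positive for 6 of 6 tested red cell markers (median 0.18). The part of fat, atrial muscle, airway wall and neutrophil transcripts in the protease values was not tested.

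**Figure D4:**
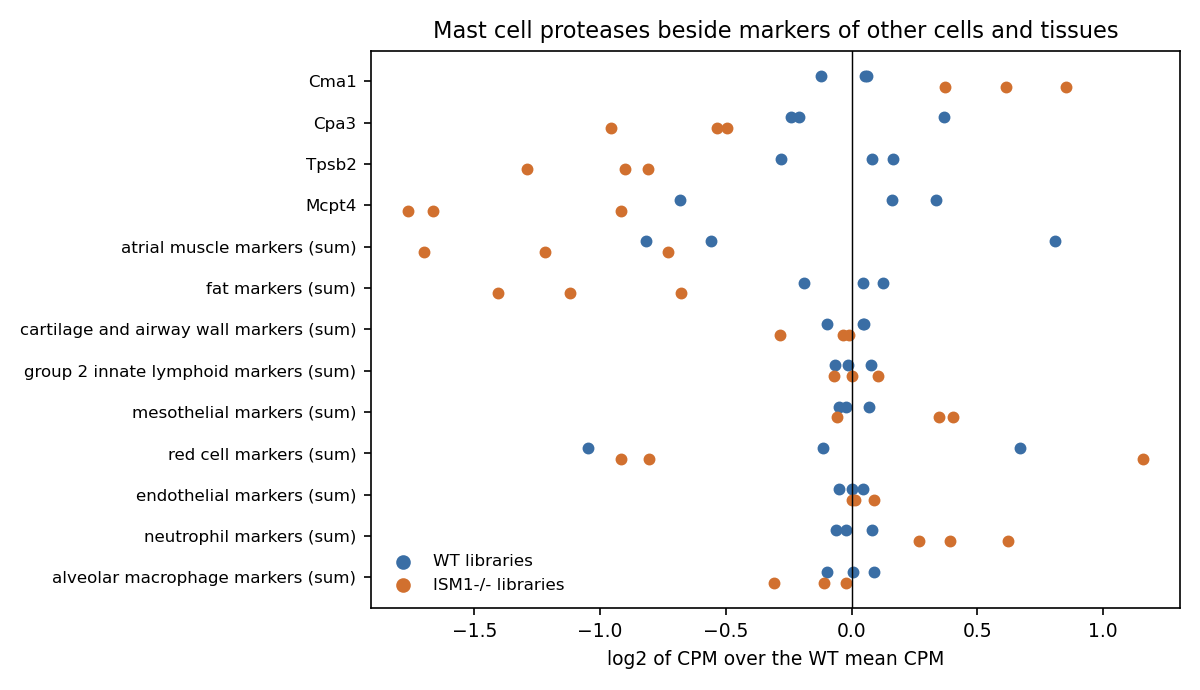
Log2 ratio of each library's CPM to the WT mean CPM, for the 4 protease genes and for the summed markers of 9 other cell types or tissues, in WT (blue) and ISM1-/- (orange) libraries. Fat markers and Mcpt4, Tpsb2 and Cpa3 lie lower in all ISM1-/- libraries, Cma1 and neutrophil markers lie higher, and red cell markers spread widely within both groups.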

How the data were processed

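RNA was extracted from perfused whole lungs, poly-A selected and sequenced as read pairs from libraries that keep the strand. Per the labels and the study's methods the authors mapped filtered reads with STAR to GRCm38 (mm10); CASAVA is also named, and the counter, annotation release and strand setting are not given in the sources used here. The deposited counts are raw reads per gene, and the deposited FPKM are fragments per kilobase and scaled by library size, which for 95.54% of 15308 genes matched the mean annotated transcript length within 2%. Totals of 37606133 to 42345042 counts per library were used.

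All genes with 0.5 CPM in at least 1 library were fitted in edgeR 4.0.16 (R 4.3.3) with TMM scaling and the quasi-likelihood test, 3 ISM1-/- against 3 WT, and adjusted over the 18689 genes tested by the Benjamini-Hochberg method at 0.1, with a 2-fold minimum where stated. Steps were tested on simulated data. DESeq2 1.42.0, other scalings and filters, a replicate block and leaving out each library were tried as alternatives. Same-numbered libraries come from different mice, and none of 15 library pairs agreed within sampling noise. P-values rest on the spread between these 6 mice and on counting error together, with dispersion estimates that borrow from all genes. Wilson intervals were computed with SciPy 1.17.1.

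The 10 genes and the related and marker lists were chosen with earlier results of these data known. Besides the 10 genes, the text names list genes past the adjusted p, up to 4 of the most abundant other mast cell, basophil and eosinophil genes, those at 0, and 5 genes most like Cpa3; others given with counts, such as Gzmb, Gm48934, Ms4a4b, Ltf, Syk, Plcg2, Pik3cd, Mcpt8, Cd200r3, Cyp11a1, Kitl, Fcer1g, Mrgprb2, Tpsab1, Mcpt1, Mcpt2, Mcpt9, Prg3, Ly6g, Il3 and Il9, were named after their values were seen. RefSeq promoters are from GRCm38.p6, the build of the files.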

Additional observations from a re-analysis of the deposited data

How the results depend on the processing

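The Mcpt4 log2 fold change was -1.37 with a replicate block (adjusted p = 0.114) and -1.70 to -1.19 with 1 library left out, and no call was made in these fits. Of 12 alternative fits, 5 kept Mcpt4 at an adjusted p under 0.1. Among them were DESeq2 (log2 fold change -1.39, DESeq2 adjusted p = 0.0428) and edgeR without a filter (-1.40, edgeR adjusted p = 0.00941). Same-numbered libraries did not deviate together (correlations -0.0405, 0.031 and 0.001), and the replicate block gave 0 lower genes of the set with or without the 2-fold minimum. With 1 library left out the set had 0 lower genes by either rule, and at an adjusted p under 0.05 it also had 0. With no filter, or 0.5 CPM in at least 3 libraries, it had 2 lower genes at an adjusted p under 0.1, as Tpsb2 passed at -0.98 in both.

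Counts over all genes moved more. Higher genes numbered 466 with DESeq2, 566 without a filter, 399 with the replicate block, 113 at an adjusted p under 0.05 and 35 to 570 with 1 library left out. Lower genes numbered 1066 without a filter, 342 at 0.05 and 115 to 900 with 1 library left out. With the 2-fold minimum, 113 higher and 180 lower genes passed without a filter, 25 and 26 at 0.05, 17 to 86 and 12 to 102 with 1 library left out, and 258 and 624 without the minimum.

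In the lists, 1 other mast cell gene was lower with DESeq2, library totals only, no filter, and without WT replicate 1 or ISM1-/- replicate 3 (0 to 1 with 1 library left out), and 1 other eosinophil gene with DESeq2, no filter, or without ISM1-/- replicate 1 (0 to 1). Higher IgE signalling genes numbered 1 with library totals only, 4 without a filter and 0 to 6 with 1 library left out. Leaving out ISM1-/- replicate 3 gave 1 lower growth factor gene, 1 lower mediator gene and 1 higher regulator (0 to 1 in each), and no filter gave 1 lower regulator. Signs turned with 1 library left out for Il1rl1 (-0.19 to 0.13), Slc18a2 (-0.024 to 0.27) and Ear1 (-0.15 to 0.0068), none of them called. By gene length, 5 of the 10 genes kept their place in the order of levels. The cause of these changes was not tested.

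With protease counts of 12 to 108 per library, the depth limits the precision of these genes, and counting error and the spread between mice were not separated. Ms4a2, Fcer1a, Epx and Prg2 stayed below the filter.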

Other observations

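The genes whose log2 CPM followed Cpa3 most closely over the 6 libraries, out of 15873 genes averaging 1 CPM or more, were Ggcx (r = 0.984), Alpl (0.981), Gm11627 (0.979), Capn3 (0.973) and Nmb (0.972). The 10 genes of the mast cell set were left out of the search. A correlation above 0.9 was reached by 142 genes (0.895%). The 6 points share their groups and scaling, and the values are a description without a test. Ggcx, which carboxylates vitamin K-dependent proteins, ranged from 58.9 to 66.0 CPM. Alpl, tissue-nonspecific alkaline phosphatase, gave 131, 148 and 214 counts from WT lungs, compared with 110, 124 and 121 from ISM1-/- lungs.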
